A study of Mus musculus with 5 samples.

Results

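The histone genes were followed in the livers of mice given CSF1-Fc, a fusion of pig colony-stimulating factor 1 (CSF1, the growth factor of the macrophage lineage) with an immunoglobulin Fc region that slows its clearance. Rows of the array were kept when every gene symbol on them was a histone gene whose older name starts with Hist1h, Hist2h, Hist3h, Hist4h, H1f, H2af or H3f. This kept 91 of 35556 rows. They covered 82 genes, of which 68 were cluster genes (the Hist1 to Hist4 names, 72 rows) and 14 were variant genes (the H1f, H2af and H3f names, 19 rows). Of the cluster genes 54 lay on mouse chromosome 13, 10 on chromosome 3, 3 on chromosome 11 and 1 on chromosome 6, and the variants were spread over 10 chromosomes. Names below are the current symbols, with the older name at first mention.

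The treated livers came from 3 adult C57BL/6 mice that received CSF1-Fc under the skin on 4 consecutive days, and were compared with livers of 2 adult C57BL/6 mice that received phosphate-buffered saline (PBS) on the same schedule. All were culled on day 5, and each array carried the RNA of 1 whole liver sample, so p-values measure the spread between mice. Array medians of the linear intensities were 31.6, 31.1 and 33.0 in CSF1-Fc livers and 32.2 and 32.1 in PBS livers. A bulk sample cannot tell a change in the share of a cell type apart from a change in RNA per cell.

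Histones are the proteins around which DNA is wound: H2A, H2B, H3 and H4 form the nucleosome core, and H1 binds the linker between cores. The cluster genes are the replication-dependent ones, whose mRNAs end in a stem-loop in place of a poly(A) tail, are bound there by the protein SLBP, and accumulate in S phase when new DNA has to be packed. The variants are spread over the genome, mostly make ordinary polyadenylated mRNAs throughout the cell cycle, and replace the cluster proteins at chosen sites. A few cluster genes are also known to give polyadenylated mRNA in cells that have stopped dividing, among them *H1f2* (Hist1h1c), *H2bc4* (Hist1h2bc), *H2bc21* (Hist2h2be) and *H4f16* (Hist4h4).

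Cluster histone transcripts were higher in CSF1-Fc livers in all 5 histone classes, and most variant transcripts did not pass the test. Of the 72 cluster rows 57 rose (79.2%), none fell and 15 did not pass, in limma at an adjusted p of 0.05 over all rows. Of the 19 variant rows 4 rose (21.1%) and none fell. All 19 variant rows carried 1 gene symbol, and of the 33 cluster rows of 1 symbol 19 rose (57.6%). The PBS mean lay below 5 log2 units in 15 of the 72 cluster rows and 8 of the 19 variant rows. Over all rows of the array 5.77% rose and 3.19% fell. At an unadjusted p of 0.05 the counts were 62 higher and 1 lower among cluster rows, and 9 higher and 1 lower among variant rows, where 10.5% of all rows were higher and 12.8% lower. Cluster rows had a median log2 fold change of 1.45 and variant rows of 0.34, against -0.08 over all rows. All 3 CSF1-Fc arrays lay above both PBS arrays in 65 cluster rows and 10 variant rows, and all lay below in 1 cluster row and 3 variant rows, where 15.8% and 25.6% of all rows did so. The difference between cluster and variant rows was not tested, because members are not replicates.

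Both counts moved when an array was left out. Fewer rows rose without PBS replicate 1 or without PBS replicate 2, among the cluster rows and over all rows of the array. The fit then held 1 PBS array, and the variant rows did not keep their calls. The median log2 fold change of cluster rows was 1.55 without PBS replicate 1 and 1.28 without PBS replicate 2. That of variant rows was 0.41 without PBS replicate 1 and 0.37 without PBS replicate 2. All 4 variant rows were also lost with no moderation of the variance, where 1.55% of all rows rose in place of 5.77%. Under other settings between 7 and 10 variant rows rose, and the share over all tested rows rose too. The count was 8 after centring on liver secreted proteins (7.89% of all rows) and 10 with array weights (9.61%). It was 7 of 12 tested variant rows among brighter rows (11.7% of all rows tested) and 9 among rows of 1 symbol (10.5%). The array weights were 4.19, 0.47 and 0.43 for CSF1-Fc replicates 1, 2 and 3, and 1.08 for each PBS array. The weighted fit therefore leaned on CSF1-Fc replicate 1.

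**Figure D1:**
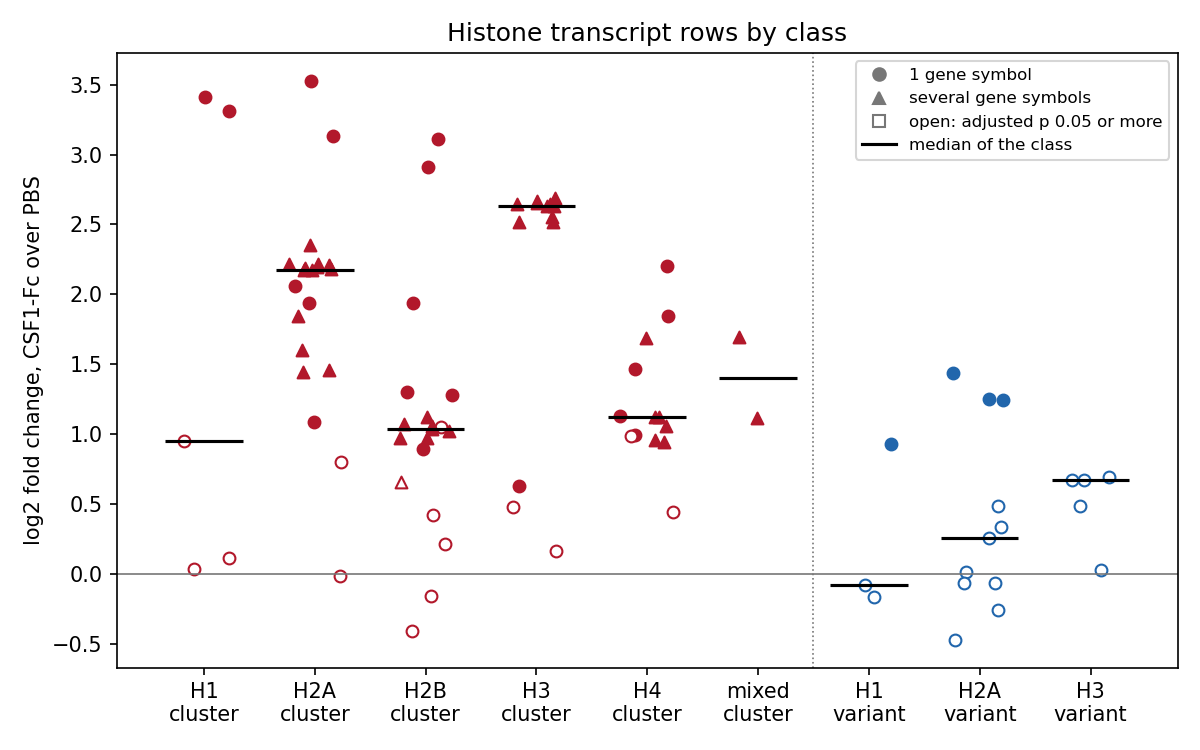
Log2 fold change (CSF1-Fc over PBS, vertical axis) of each of the 91 histone rows by class, cluster rows in red and variant rows in blue. Circles are rows of 1 gene symbol, triangles rows shared by several genes, open symbols rows that did not pass the test, and black lines class medians. The shared H3 rows lie together between 2.52 and 2.69, and the 5 H3 variant rows lie at 0.69 or below.

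The members of a class differ little in their coding sequence, and 39 of the 72 cluster rows carried several gene symbols, up to 11 on 1 row. The value of such a row cannot be assigned to 1 gene, and 36 cluster genes had no row of their own. Of these shared rows 38 of 39 rose, with a median of 1.84, and of the 33 cluster rows of 1 symbol 19 rose, with a median of 1.05. There were 3 pairs of rows with identical values, and 1 row for each distinct set of symbols gave 43 cluster rows and 3 variant rows that rose.

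Among the linker histones 2 of 5 rows rose, and the other rows did not pass. *H1f1* (Hist1h1a) stood at 9.63, 10.02 and 9.41 log2 units in CSF1-Fc livers, against 6.49 and 6.07 in PBS livers. *H1f5* (Hist1h1b), like *H1f1* a replication-dependent linker histone, stood at 9.06, 9.39 and 8.77 in CSF1-Fc livers, against 5.86 and 5.66 in PBS livers. For both genes every CSF1-Fc array lay far above every PBS array. *H1f1* rose by 3.41 ± 0.22 log2 units (SE, adjusted p = 0.000456, limma), a 10.6-fold difference, and *H1f5* by 3.31 ± 0.20 (adjusted p = 0.000443), a 9.92-fold difference.

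*H1f2*, the linker histone also made in non-dividing cells, stood at 9.66, 9.34 and 9.39 in CSF1-Fc livers, against 9.58 and 9.13 in PBS livers. The groups overlapped. Its log2 fold change was 0.11, with a 95% interval of -0.34 to 0.56 (adjusted p = 0.789, limma). On the deposited scale a change of 1.5 times in either direction lay outside the interval. Centred on liver secreted proteins the log2 fold change was 0.41 (adjusted p = 0.346, limma), to which that bound does not apply. The difference between *H1f1* and *H1f2*, taken within each array and set against its PBS mean, was 3.05, 3.75 and 3.10 log2 units in the CSF1-Fc arrays and -0.01 and 0.01 in the PBS arrays. *H1f3* (Hist1h1d) stood at 5.76, 6.42 and 5.47 in CSF1-Fc livers, against 4.98 and 4.89 in PBS livers, and did not pass (0.95 ± 0.28, adjusted p = 0.0985), although its groups did not overlap. *H1f6* (Hist1h1t), the testis linker histone, had a log2 fold change of 0.03 at a level near 3.3. *H1f4* (Hist1h1e) shared its only row with the H2B gene *H2bc6* (Hist1h2be), which rose by 1.11 ± 0.17 (adjusted p = 0.011, limma), a call lost without PBS replicate 2.

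**Figure D2:**
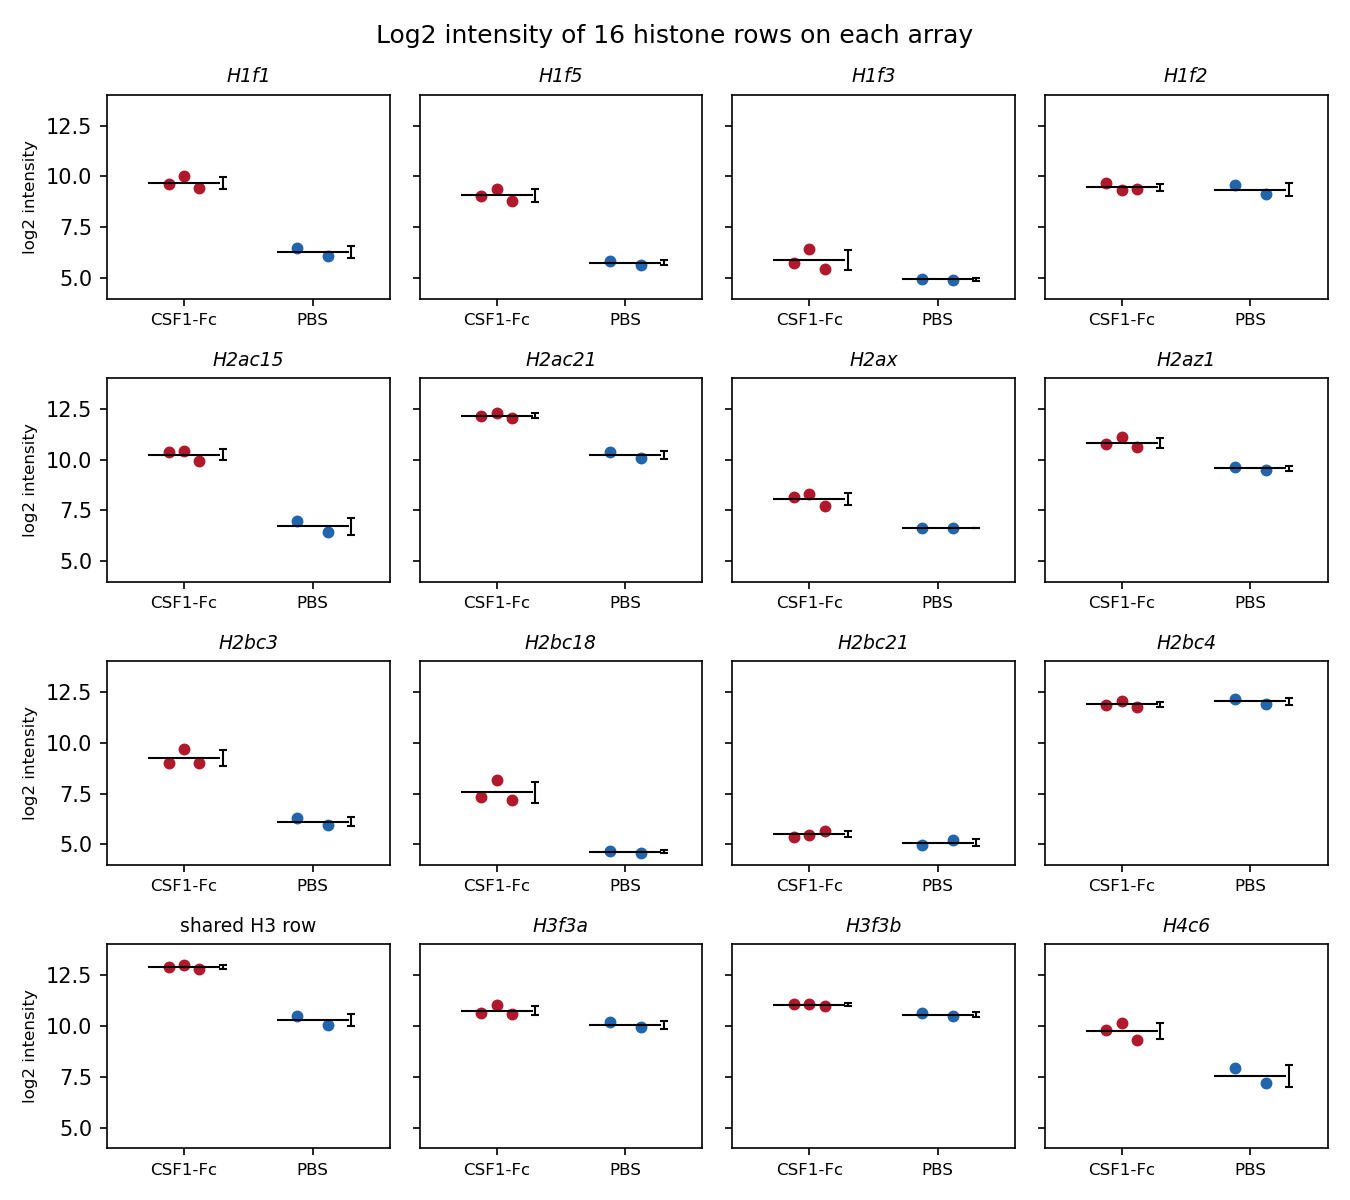
Log2 intensity on each array (points) for 16 histone rows, CSF1-Fc livers in red (3 arrays) and PBS livers in blue (2 arrays), with the mean (line) and SD (bar). The shared H3 row carries 7 genes. *H1f1*, *H1f5*, *H2ac15*, *H2bc3* and *H2bc18* are separated by about 3 log2 units, and the points of *H1f2* and *H2bc4* overlap.

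The promoters of the genes with the clearest contrasts are shown so that the elements of the histone classes can be read beside their changes. RefSeq windows of 300 bases (250 before and 50 after the start, GRCm38.p6) matched 74 of the 82 genes with 75 windows. *H2ax*, *H2bc4*, *H2bc21*, *H2bu1-ps*, *H3c1*, *H3c7*, *H4c14* and *Macroh2a3* had no entry. The 150 bases before the start follow, 5′ to 3′ on the strand of the gene, with matches on either strand in capitals to the TATA box (TATAAA), the CCAAT box (CCAAT), the octamer known from H2B promoters (ATTTGCAT), the H1 box (AAACACA) and the core bound by the H4 gene factor HiNF-P (GTCCG). None of the 5 motifs overlaps another in these stretches.
H1f1, chr13:23763518-23763667, plus strand: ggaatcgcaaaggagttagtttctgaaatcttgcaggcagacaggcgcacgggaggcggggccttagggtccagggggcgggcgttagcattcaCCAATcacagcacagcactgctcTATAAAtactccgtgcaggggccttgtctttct
H1f5, chr13:21780626-21780775, minus strand: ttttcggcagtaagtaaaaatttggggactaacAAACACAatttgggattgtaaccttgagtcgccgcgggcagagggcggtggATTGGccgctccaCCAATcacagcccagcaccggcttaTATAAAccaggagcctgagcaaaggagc
H1f2, chr13:23738657-23738806, plus strand: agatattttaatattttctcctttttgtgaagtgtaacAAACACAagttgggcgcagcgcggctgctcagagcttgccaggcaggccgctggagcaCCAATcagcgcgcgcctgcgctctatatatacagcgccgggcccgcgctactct
H2ac15, chr13:21753913-21754062, minus strand: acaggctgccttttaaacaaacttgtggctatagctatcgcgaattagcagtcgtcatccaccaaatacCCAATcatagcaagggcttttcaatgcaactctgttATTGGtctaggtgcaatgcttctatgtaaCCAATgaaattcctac
H2bc3, chr13:23746584-23746733, plus strand: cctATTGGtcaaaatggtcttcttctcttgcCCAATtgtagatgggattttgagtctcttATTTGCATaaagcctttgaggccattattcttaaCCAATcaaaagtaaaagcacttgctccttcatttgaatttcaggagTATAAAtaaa
H2bc18, chr3:96269550-96269699, plus strand: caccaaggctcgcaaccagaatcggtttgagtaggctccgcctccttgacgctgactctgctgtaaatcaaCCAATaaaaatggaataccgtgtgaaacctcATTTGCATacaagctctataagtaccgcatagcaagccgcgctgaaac
H4c6, chr13:23551669-23551818, minus strand: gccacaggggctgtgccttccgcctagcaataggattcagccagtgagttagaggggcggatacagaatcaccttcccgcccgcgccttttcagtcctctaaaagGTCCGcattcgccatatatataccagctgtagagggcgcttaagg
H3f3b, chr11:116024505-116024654, minus strand: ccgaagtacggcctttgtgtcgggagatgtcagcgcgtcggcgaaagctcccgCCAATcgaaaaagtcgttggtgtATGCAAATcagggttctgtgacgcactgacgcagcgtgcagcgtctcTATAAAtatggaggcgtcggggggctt
H2az1, chr3:137864337-137864486, plus strand: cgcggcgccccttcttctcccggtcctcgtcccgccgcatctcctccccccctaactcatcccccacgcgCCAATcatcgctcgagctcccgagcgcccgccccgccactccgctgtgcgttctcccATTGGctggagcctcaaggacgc

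The H1 box stood in the stretch of *H1f5*, which rose, and in that of *H1f2*, which did not pass, and all 3 linker histone stretches held a CCAAT box. In the 300-base windows AAACACA was found in 5 of 6 cluster H1 promoters, against 7.18% of the 32851 promoters in the table. It was also found in 2 of 18 H2A, 2 of 17 H2B and 1 of 12 variant promoters, and in no cluster H3 or H4 promoter. CCAAT was found in every cluster H1 (6), H2A (18), H2B (17) and H3 (10) promoter in 3 of 12 H4 promoters and in 8 of 12 variant promoters, against 37.4% of all promoters. The octamer was found in 7 of 18 H2A and 7 of 17 H2B promoters and in no cluster H1, H3 or H4 promoter. It was also found in 1 of 12 variant promoters (*H3f3b*) and in 1.74% of all promoters. Of the 14 cluster windows with the octamer 6 overlapped another of them, so those genes share bases. GTCCG was found in all 12 H4 promoters, in 8 of 18 H2A, 6 of 17 H2B and 5 of 12 variant promoters, and in 23.4% of all promoters. TATAAA was found in 35 of 63 cluster windows, in 1 of 12 variant windows (*H3f3b*) and in 13.6% of all promoters. A match is a string of letters in the window and was not tied to binding or to a change.

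Of the 20 cluster H2A rows 18 rose, with a median log2 fold change of 2.17. *H2ac15* (Hist1h2ak) stood at 10.36, 10.44 and 9.92 in CSF1-Fc livers, against 7.00 and 6.42 in PBS livers. Its groups were well apart, and it had the largest fold change of the 91 rows (3.53 ± 0.24, 11.5-fold, adjusted p = 0.000467, limma). *H2ac4* (Hist1h2ab) stood at 5.92, 6.80 and 6.11 in CSF1-Fc livers, against 3.54 and 2.75 in PBS livers, where it was dim (3.13 ± 0.33, adjusted p = 0.00241).

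The 9 shared H2A rows of chromosome 13 all rose, by 2.17 to 2.35. The highest of them, a row of 9 genes, stood at 12.58, 12.57 and 12.43 in CSF1-Fc livers, against 10.28 and 10.06 in PBS livers. The 4 shared rows of the H2A genes *H2ac18*, *H2ac19* and *H2ac20* (Hist2h2aa1, Hist2h2aa2 and Hist2h2ac) on chromosome 3 also rose, by 1.44 to 1.84. *H2ac21* (Hist2h2ab), their neighbour with a row of its own, stood at 12.14, 12.30 and 12.03 in CSF1-Fc livers, against 10.36 and 10.08 in PBS livers, and rose by 1.94 ± 0.15 (adjusted p = 0.000773, limma). *H2aw* (Hist3h2a), the H2A gene of the small cluster on chromosome 11, rose by 2.06. The testis H2A gene *H2ac1* (Hist1h2aa) also passed, at 5.45, 5.36 and 5.16 in CSF1-Fc livers, against 4.27 and 4.20 in PBS livers (1.09 ± 0.14, adjusted p = 0.00593), and its call was lost without PBS replicate 1 and without PBS replicate 2. *H2ac8* (Hist1h2ae, 0.80, adjusted p = 0.186) and *H2ac6* (Hist1h2ac, -0.01, or 0.28 when centred on liver secreted proteins, adjusted p = 0.977) were dim in both groups and did not pass.

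Of the 19 H2B rows 13 rose, with a median of 1.04. *H2bc3* (Hist1h2bb) stood at 9.02, 9.68 and 8.98 in CSF1-Fc livers, against 6.28 and 5.96 in PBS livers (3.11 ± 0.25, adjusted p = 0.000773, limma). *H2bc18* (Hist2h2bb) stood at 7.33, 8.16 and 7.18 in CSF1-Fc livers, against 4.70 and 4.59 in PBS livers (2.91 ± 0.30, adjusted p = 0.00201). Both genes were clear of overlap, and CSF1-Fc replicate 2 was the highest array for each. *H2bc14* (Hist1h2bm) rose by 1.93, and *H2bu1-ps* (Hist3h2bb, a pseudogene in mouse) by 1.30, a call that 5 of 15 alternatives did not keep. *H2bc1* (Hist1h2ba), the testis H2B, rose by 0.89 at an adjusted p of 0.0466 that 9 alternatives did not keep.

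The row of *H2bc4* alone, a gene known to make polyadenylated mRNA, stood at 11.85, 12.02 and 11.76 in CSF1-Fc livers, against 12.17 and 11.91 in PBS livers. The groups overlapped, with a log2 fold change of -0.16 (0.14 when centred on liver secreted proteins) and a 95% interval of -0.52 to 0.21 (adjusted p = 0.605, limma). A second *H2bc4* row, near the bottom of the scale at 2.67 in CSF1-Fc livers and 3.08 in PBS livers, had -0.41 (adjusted p = 0.106) and was the only cluster row with all CSF1-Fc arrays below both PBS arrays. *H2bc4* also belonged to 5 shared H2B rows that all passed, at 0.97 to 1.06. *H2bc21*, another gene known to make polyadenylated mRNA, stood at 5.37, 5.47 and 5.67 in CSF1-Fc livers, against 4.97 and 5.20 in PBS livers, and did not pass (0.42, 95% interval 0.05 to 0.79, adjusted p = 0.165). Its groups did not overlap, and it passed when centred on liver secreted proteins (0.72, adjusted p = 0.044, limma). The within-array difference between *H2bc3* and *H2bc4*, set against its PBS mean, was 3.09, 3.58 and 3.14 log2 units in CSF1-Fc arrays and 0.03 and -0.03 in PBS arrays. *H4f16*, also known for such mRNA, rose (1.13 ± 0.25, adjusted p = 0.0441), a call that 6 alternatives did not keep.

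The shared H2B rows had smaller log2 fold changes than the shared H2A and H3 rows, a difference that was not tested. In 7 of 8 the log2 fold change was 0.97 to 1.12 and passed, and the row of *H2bu1-ps* and *H2bu2* (Hist3h2bb and Hist3h2ba) had 0.66 (adjusted p = 0.229). The row with 1.12, shared by 9 genes, stood at 11.62, 11.83 and 11.50 in CSF1-Fc livers, against 10.62 and 10.44 in PBS livers. All 7 rows lost their call without PBS replicate 2.

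All 10 shared H3 rows rose, by 2.52 to 2.69, the narrowest range of any class. The row with the largest change, shared by 6 genes, stood at 12.68, 12.83 and 12.60 in CSF1-Fc livers, against 10.23 and 9.80 in PBS livers (2.69 ± 0.17, 6.43-fold, adjusted p = 0.00045, limma). The 3 H3 rows of 1 symbol were all dim, with PBS means of 2.19 to 4.15. *H3c4* (Hist1h3d) stood at 4.57, 4.61 and 4.80 in CSF1-Fc livers, against 4.03 and 4.04 in PBS livers, and rose by 0.63 (adjusted p = 0.0389), a call lost without each of the 5 arrays in turn, with no moderation and with the replicate block (adjusted p up to 0.222). *H3c15* (Hist2h3c2, 0.48) and *H3c7* (Hist1h3f, 0.16) did not pass. For H3 the size of the change therefore rests on rows that several genes share.

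Of the 13 H4 rows 11 rose, with a median of 1.12. *H4c6* (Hist1h4f) stood at 9.79, 10.12 and 9.33 in CSF1-Fc livers, against 7.92 and 7.17 in PBS livers (2.20 ± 0.31, 4.60-fold, adjusted p = 0.0077, limma). *H4c14* (Hist2h4) stood at 9.64, 10.14 and 9.36 in CSF1-Fc livers, against 8.12 and 7.63 in PBS livers (1.84 ± 0.27, adjusted p = 0.00903). Neither gene overlapped between groups, the PBS arrays of *H4c6* were 0.75 log2 units apart, and both calls were lost without PBS replicate 2. *H4c3* (Hist1h4c) rose by 1.46 ± 0.33 (adjusted p = 0.0464), a call that 7 alternatives did not keep. The 6 shared H4 rows rose by 0.94 to 1.69, the row of *H4c17* and *H4c11* (Hist1h4m and Hist1h4j) having the 1.69, and the other 5 lost their calls without PBS replicate 2. The row with 0.94, shared by 5 genes, stood at 12.54, 12.67 and 12.48 in CSF1-Fc livers, against 11.85 and 11.40 in PBS livers. *H4c8* (Hist1h4h, 0.99, adjusted p = 0.173) and *H4c9* (Hist1h4i, 0.44, adjusted p = 0.426) did not pass.

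**Figure D3:**
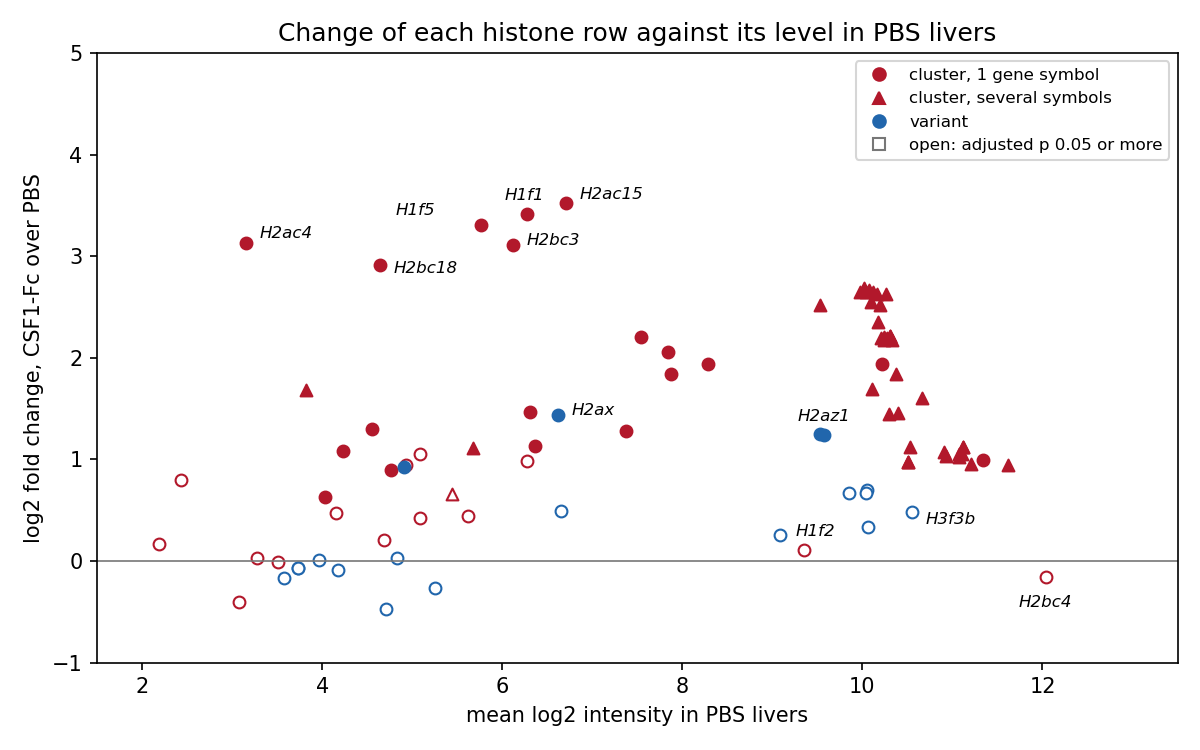
Log2 fold change (CSF1-Fc over PBS, vertical axis) of each histone row against its mean log2 intensity in PBS livers (horizontal axis), cluster rows in red and variant rows in blue. Rows that did not pass (open) occur from a PBS mean of 2.19 to 12.04, and the highest log2 value of any row on the 5 arrays was 13.64.

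Among the variants, the 4 rows that rose belonged to 3 genes. *H2ax* (H2afx), whose protein is phosphorylated next to DNA breaks, stood at 8.15, 8.30 and 7.71 in CSF1-Fc livers, against 6.63 and 6.62 in PBS livers (1.43 ± 0.20, 2.70-fold, adjusted p = 0.00727, limma). *H2az1* (H2afz), which encodes the H2A.Z found at promoters, had 2 rows that rose by 1.25 and 1.24 (adjusted p = 0.0109 and 0.00922). The row with 1.24 stood at 10.74, 11.10 and 10.61 in CSF1-Fc livers, against 9.66 and 9.49 in PBS livers. *H1f10* (H1fx), a linker histone variant, stood at 5.69, 6.17 and 5.67 in CSF1-Fc livers, against 5.11 and 4.72 in PBS livers (0.93 ± 0.21, adjusted p = 0.047), a call that 10 of 15 alternatives did not keep. In all 3 genes the groups did not overlap.

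*H2az2* (H2afv), the second H2A.Z gene, stood at 9.13, 9.70 and 9.18 in CSF1-Fc livers, against 9.23 and 8.93 in PBS livers. Its groups overlapped and it did not pass (0.26, 95% interval -0.26 to 0.78, adjusted p = 0.546, limma). The within-array difference between *H2az1* and *H2az2*, set against its PBS mean, was 1.12, 0.90 and 0.93 in CSF1-Fc arrays and -0.07 and 0.07 in PBS arrays.

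The H3.3 genes, which supply H3 outside replication, had smaller log2 fold changes than the shared cluster H3 rows, and this difference was not tested. Of the 4 rows of *H3f3a* 3 had log2 fold changes of 0.67 to 0.69 and adjusted p of 0.0577 to 0.0696, and a dim row had 0.03. The row with 0.69 stood at 10.62, 11.01 and 10.60 in CSF1-Fc livers, against 10.18 and 9.92 in PBS livers. *H3f3b*, which encodes the same protein, stood at 11.07, 11.08 and 10.96 in CSF1-Fc livers, against 10.63 and 10.48 in PBS livers (0.48, 95% interval 0.18 to 0.79, adjusted p = 0.0743). The groups did not overlap in these 4 rows, and none passed the test in the main fit. All 4 passed when centred on liver secreted proteins, in the fit on rows of 1 symbol and with array weights. None passed when centred on the array median, with the variance trend, with the replicate block, with no moderation or with any CSF1-Fc array left out.

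The remaining variants did not pass. *Macroh2a1* (H2afy), the macroH2A of silent chromatin, had 0.34 (adjusted p = 0.228), and *H2aj* (H2afj) 0.49 (adjusted p = 0.0975). *Macroh2a2* (H2afy2) was among the rows with every CSF1-Fc array below both PBS arrays, with -0.47 (95% interval -0.79 to -0.15, adjusted p = 0.0885). The germ line variants *H1f7* (H1fnt), *H1f8* (H1foo), *H2al2a* and *H2ab1* (both once H2afb1) had log2 fold changes of -0.26 to -0.07 at levels below 5.4, which were all above 0 when centred on liver secreted proteins, and *Macroh2a3* (H2afy3) had 0.01. *H2ab1* had 2 identical rows.

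The arrays of a group differed in the same way across most histone rows. CSF1-Fc replicate 2 was the highest CSF1-Fc array in 62 of 72 cluster rows and 14 of 19 variant rows, against 35.8% of all rows, and CSF1-Fc replicate 3 the lowest in 64 and 16, against 42.9%. Within PBS, replicate 1 lay above replicate 2 in 67 cluster rows and 14 variant rows, against 47.5% of all rows and 59.9% of rows with a mean log2 value of 9 or more. The median cluster row lay 1.34, 1.72 and 1.17 log2 units above the PBS mean in CSF1-Fc replicates 1, 2 and 3, and at 0.12 and -0.12 in PBS replicates 1 and 2. The median S phase gene lay at 1.48, 1.43 and 1.53 in CSF1-Fc replicates 1, 2 and 3, and at -0.01 and 0.01 in PBS replicates 1 and 2.

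**Figure D4:**
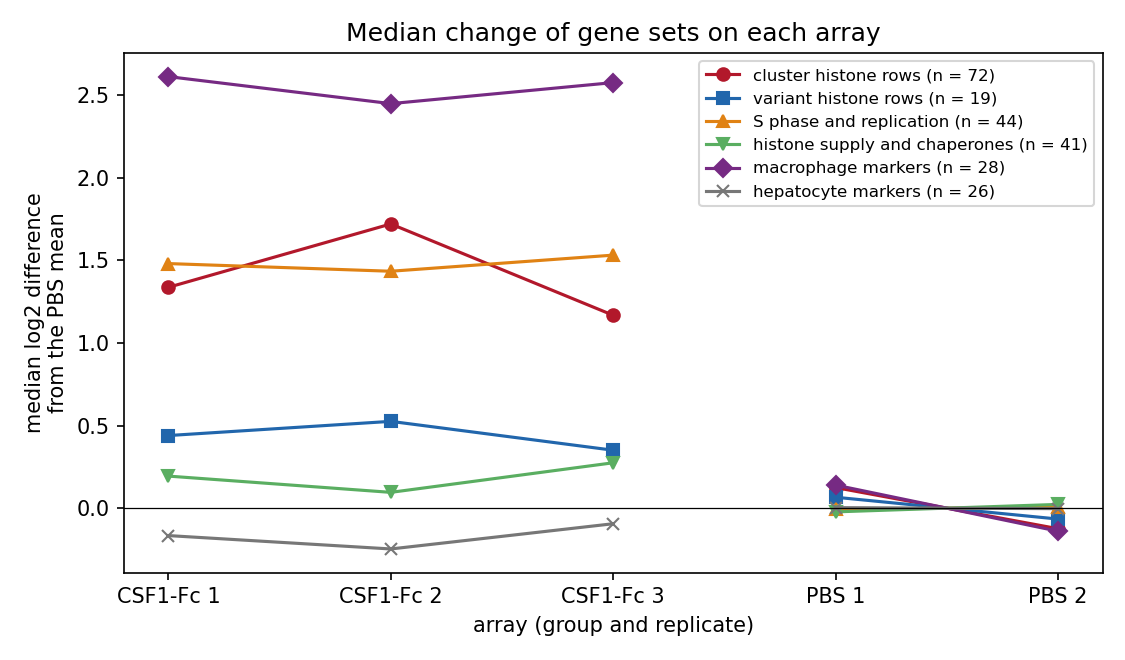
Median log2 difference from the PBS mean (vertical axis) for 6 sets of rows or genes on each array (horizontal axis, group and replicate). Cluster histone rows vary between CSF1-Fc arrays from 1.17 to 1.72, S phase genes from 1.43 to 1.53.

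Several gene groups were also higher in CSF1-Fc than in PBS livers, and their part in the histone result was not tested. Of 44 measured S phase and replication genes 39 rose and none fell (limma, 42 higher and none lower at an unadjusted p of 0.05), with a median log2 fold change of 1.48. Beside this count and the marker counts that follow, 5.77% of all rows rose and 3.19% fell. All 28 measured macrophage markers rose (median 2.57), and the log2 of their summed intensity was 15.56 to 15.66 in CSF1-Fc livers and 13.22 to 13.42 in PBS livers. Of 15 neutrophil and promyelocyte markers 11 rose (summed 11.48 to 11.83 in CSF1-Fc livers and 9.05 to 11.21 in PBS livers), and of 17 lymphocyte markers 6 (9.71 to 10.13 in CSF1-Fc livers and 8.73 to 8.81 in PBS livers). Of 12 erythroid markers *Tfrc* rose, and *Car1* and *Alas2* fell (summed 10.44 to 10.72 in CSF1-Fc livers and 11.05 to 11.08 in PBS livers). Of 26 hepatocyte markers 1 rose and 2 fell, with sums of 17.07 to 17.19 in CSF1-Fc livers and 17.27 to 17.30 in PBS livers. At an unadjusted p of 0.05 (limma) 1 of them was higher and 8 were lower, where 10.5% of all rows were higher and 12.8% lower.

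The genes that process histone mRNA and carry histone proteins changed in part. Of 41 measured genes of that list 12 rose and none fell, with a median of 0.19, where 5.77% of all rows rose and 3.19% fell. At an unadjusted p of 0.05 (limma) 18 were higher and 1 lower, against 10.5% and 12.8% of all rows. In the fit on rows of 1 symbol 14 of the 41 rose, against 10.5% of the rows tested. Without CSF1-Fc replicate 1 the count was 7, against 3.74% of all rows, and it was also below 12 without either PBS array.

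*Asf1b*, the proliferation-linked H3-H4 chaperone, stood at 9.20, 9.09 and 8.90 in CSF1-Fc livers, against 5.08 and 4.84 in PBS livers, and rose by 4.11 ± 0.15 (adjusted p = 0.000329, limma). Its paralogue *Asf1a* stood at 6.58, 6.56 and 6.54 in CSF1-Fc livers, against 6.54 and 6.00 in PBS livers, and did not pass (0.30, adjusted p = 0.399). *Chaf1b* and *Chaf1a*, subunits of the CAF-1 complex that places H3-H4 on new DNA, rose by 2.30 and 1.49, the call of *Chaf1a* being lost in 5 alternatives. *Mcm2*, a helicase subunit that also holds parental H3-H4 and stands on the S phase list too, rose by 2.32, *Mms22l* and its partner *Tonsl* by 1.74 and 0.75 (*Tonsl* lost its call in 4 alternatives), and *Hat1*, which acetylates new H4, by 1.62. *Cenpa*, the centromeric H3, and *Mis18a*, needed to load it, rose by 2.07 and 1.77.

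Some genes that act on histone mRNA itself also passed. *Slbp*, which binds the stem-loop, stood at 7.82, 7.66 and 7.81 in CSF1-Fc livers, against 7.10 and 7.02 in PBS livers, with no overlap (0.71 ± 0.13, adjusted p = 0.0211, limma). The call was lost without CSF1-Fc replicate 1, and also without either PBS array. *Eri1*, a nuclease that trims the histone mRNA end, rose by 0.91, and *Casp8ap2*, the FLASH protein of histone processing, by 0.54 (adjusted p = 0.0437, limma). The call of *Eri1* was lost in 5 alternatives and that of *Casp8ap2* in 9, including each array left out. *Npat*, the coactivator of cluster histone genes, did not pass (0.39, adjusted p = 0.21), nor did the processing genes *Lsm10* (0.03), *Lsm11* (0.08), *Cpsf3* (-0.10) and *Sympk* (-0.14).

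Genes that did not pass included *Hira* (0.03, adjusted p = 0.942), *Daxx* (0.59, adjusted p = 0.0857) and *Atrx* (-0.25, adjusted p = 0.543), which serve H3.3, and *Anp32e* (0.69, adjusted p = 0.12), which removes H2A.Z. *Nasp*, a store of soluble H3-H4, had 0.55 (adjusted p = 0.2, limma).

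**Figure D5:**
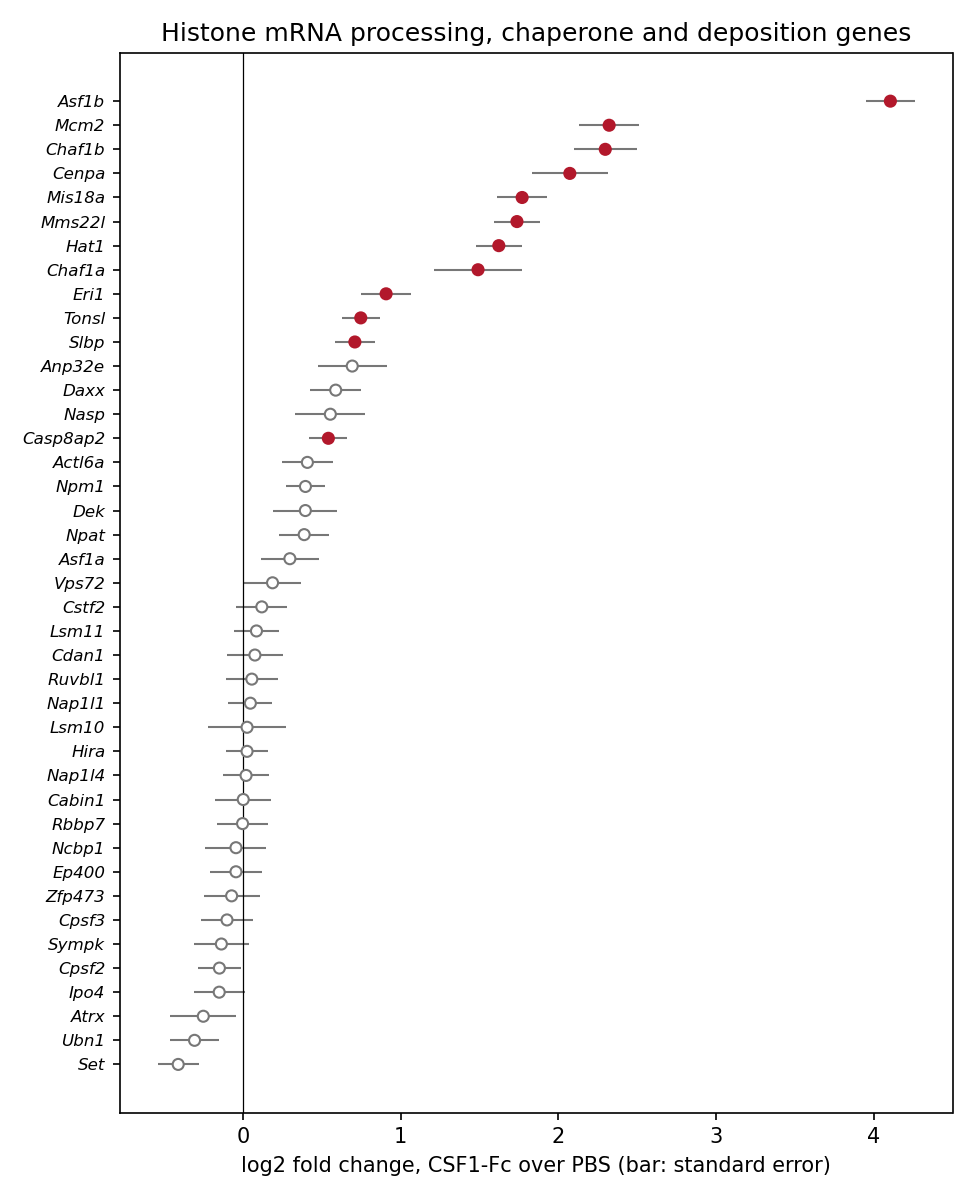
Log2 fold change (CSF1-Fc over PBS, horizontal axis) with its standard error for the 41 measured genes of histone mRNA processing, chaperoning and deposition. Filled points passed the test (12 genes), and *Asf1b* at 4.11 stands apart from *Mcm2* at 2.32, the next in order.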

How the data were processed

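Mouse Gene 1.1 ST arrays (Affymetrix) carried amplified liver RNA (Nugen Pico SL kit) of 3 CSF1-Fc and 2 PBS mice. The deposited values are the authors' normalized intensities, linear, 1 per transcript row. The background correction, the normalization, the summary of probes and the priming of the cDNA, which matters for mRNAs without a poly(A) tail, are each not given in the sources used. The submitters' processing notes name Affymetrix Expression Console 1.1.

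The log2 of each intensity, without pseudocount or filter, was fitted with limma 3.58.1 (lmFit and eBayes, 1 mean per group, two-sided) in R 4.3.3. P-values were adjusted by Benjamini-Hochberg over 35556 rows. Residual and prior degrees of freedom were 3 and 3.34. An exact permutation test of 3 against 2 arrays could not go below 0.1. The arrays' number limits the precision.

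The platform annotation uses current symbols, so the older names were found through the Entrez ID in RefSeq (13 rows matched without them). The annotation named 21218 rows with 1 symbol and 1881 with several, and 12457 were unnamed here. Left out were 4 rows that also carried another symbol. The members and lists were chosen with earlier results of these data known. A listed gene was represented by its brightest row of 1 symbol.

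Genes were named by a rule: all variants; in each cluster class the 4 largest changes that passed, the highest mean and the change nearest 0; and on the supply list the 8 largest changes with *Slbp*, *Npat*, *Nasp*, *Asf1b* and *Cenpa*. *H1f3*, *H2ac1*, *H2ac8*, *H2ac21*, *H2aw*, *H2bc1*, *H2bc21*, *H3c4*, *H3c15*, *H4c8*, *H4f16*, the rows of *H1f4* and *H2bu2*, the second *H2bc4* row, the shared H2A and H2B rows and the other supply and marker genes were chosen after their values were seen. The pairs of genes compared within arrays followed no rule. Each reported pair joined a row that rose with a row that did not pass, so a gap in CSF1-Fc arrays was fixed by the choice. The PBS values of a pair are opposite by construction. Housekeeping genes (17 measured, 3 rose, median 0.13) and liver secreted proteins (37 measured, none passed, median -0.16) were checked in the same fit. The fit was tested on simulated data.

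The fit was repeated after quantile normalization, after centring each array on its median or on 38 rows of liver secreted proteins, and with 16 added before the log. It was also repeated on rows with a mean log2 value of 5 or more in a group, on rows of 1 symbol, with limma's array weights (statmod 1.5.0), with a replicate block, with an intensity trend in the variance, without moderation, without each array in turn and at stricter thresholds.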

Additional observations from a re-analysis of the deposited data

How the results depend on the processing

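The fit on rows of 1 symbol tested 33 cluster and 19 variant rows, 52 of the 91 histone rows. Of these, 19 cluster and 4 variant rows rose in the main fit, and 21 and 9 in that fit. Its counts below come from fewer rows and are not a loss of calls against the main fit. The count of cluster rows that rose was 57, and it was 52 to 60 under quantile normalization, centring, the filter on dim rows, the variance trend, array weights, the replicate block and the offset. It was 21 among rows of 1 symbol, where fewer rows were tested, and 22 with no moderation, and 34 to 59 with each array left out in turn. Over all histone rows the count of 61 became 30 among rows of 1 symbol, 22 with no moderation and 34 to 62 with each array left out. The 4 variant rows became 8 when centred on liver secreted proteins, 7 with the filter on dim rows, 9 among rows of 1 symbol, 10 with array weights, 2 at an adjusted p of 0.01, 0 with no moderation and 0 to 3 with each array left out. Rows that fell numbered 0, except 1 variant row among rows of 1 symbol and, with array weights, 1 cluster and 1 variant row (2 in all). The 12 supply genes became 4 with no moderation, 7 at an adjusted p of 0.01 and 7 to 13 with each array left out, and array weights added 1 that fell. The median log2 fold change of cluster rows (1.45) was 1.75 when centred on liver secreted proteins and 1.05 among rows of 1 symbol, and 1.25 to 1.55 with each array left out. That of variant rows (0.34) was 0.63 and, with the filter on dim rows, 0.67, and 0.34 to 0.41 with each array left out. Centring on liver secreted proteins gave a median of 0.22 over all rows, in place of -0.08, and a share of higher among called rows of 90.7%, in place of 64.4%. Over all rows tested 5.77% rose in the main fit, 7.89% with that centring and 11.7% with the filter on dim rows. The share was 10.5% among rows of 1 symbol, 9.61% with array weights and 1.55% with no moderation. It was 3.74%, 5.61% and 5.77% without CSF1-Fc replicates 1, 2 and 3, and fewer rows also rose without either PBS array. The other causes were not tested. The labels do not say whether replicate numbers pair the mice. Deviations of same-numbered arrays correlated at -0.07 and -0.25. The deviations of 2 PBS arrays are opposite by construction, so these values cannot settle pairing. With the replicate number as a block the counts that rose were 56 histone rows, 53 cluster rows, 3 variant rows and 8 supply genes, where 4.44% of all rows rose. Replicate number 3 occurred only among CSF1-Fc livers, so that array added nothing to the block comparison. The block fit kept 1 residual degree of freedom. Its median log2 fold changes (1.52 for cluster rows, 0.34 for variant rows) equalled those without CSF1-Fc replicate 3. Keeping 1 row for each set of symbols, an alternative chosen after seeing the data, gave 43 cluster and 3 variant rows (46 in all). No row that passed changed sign under any alternative of the fit, while up to 7 of the 30 rows that did not pass did, the most when centred on liver secreted proteins (*H2ac6*, *H2bc4*, *H1f7*, *H1f8*, *H2al2a* and both *H2ab1* rows). With 3 against 2 mice, amplified RNA and probes that near-identical genes share, levels of single cluster genes and small changes are the least certain values.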
